A study of Homo sapiens with 3 samples.

Results

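The *ERBB3* locus was examined in chromatin immunoprecipitation sequencing (ChIP-seq) of the PRCC-TFE3 fusion protein. The locus was defined by position alone, as the *ERBB3* gene on the plus strand of chromosome 12 (chr12:56473645-56497291, hg19) with 50 kb on either side. Every listed peak that overlapped this window was taken. Peaks of the replicates with 1 bp or more in common were joined, which left the window with 20 regions of the 117702 in the genome.

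All samples came from HK-2, a human cell line derived from proximal tubule epithelium of the kidney. The cells carried an inducible HA-tagged PRCC-TFE3 gene and received 0.2 µg/mL doxycycline for 24 h to switch it on. Chromatin was cross-linked and cut with micrococcal nuclease. Precipitation with an anti-HA antibody gave 2 ChIP libraries (replicates 1 and 2), and 1 library of unprecipitated input DNA served as the background. The fusion was thus expressed from a transgene and read through its tag, and cells without doxycycline or without the tag were not analysed here.

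*ERBB3* encodes a receptor of the epidermal growth factor receptor family that binds neuregulins. Its own kinase activity is weak, and it signals mainly as a heterodimer with other family members, after which its tail recruits PI3K and other signalling proteins. TFE3 belongs to the MiT/TFE family of basic helix-loop-helix leucine zipper factors, which bind E-box sequences and regulate lysosomal and metabolic genes. In TFE3-rearranged renal cell carcinoma, fusions such as PRCC-TFE3 keep this DNA-binding part. The question addressed here was where the tagged fusion was detected at *ERBB3*, in particular whether it was detected at the promoter, defined as the gene start ±1 kb. The study already reported promoter peaks of the fusion at *ERBB3* in ChIP-seq of these HK-2 cells. Detection at the promoter is therefore a description of the same data and not an independent finding.

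By the totals recovered from the lists, replicate 1 held 12235754 tags, replicate 2 held 7418533 and input DNA held 21694931. A tag is a counted read. The lists held 109205 and 81300 narrowPeak peaks, 84248 and 63535 BED peaks of fixed width, and 286 input peaks. Fold enrichment below is the value of the authors' peak caller at the summit of a narrowPeak peak, and tag counts are whole tags in BED peaks of 208 bp (replicate 1) or 212 bp (replicate 2). All intervals are 95% intervals and cover counting error only.

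PRCC-TFE3 was detected at the *ERBB3* promoter in both replicates, at 2 separate regions. In the gene body, which here runs from 1 kb past the start to the gene end, neither replicate had a listed peak. The flanks held the other 18 regions, and the highest values of the window lay past the 3′ end of the gene, not at its promoter. Neighbouring genes were not placed in hg19 here, so no flank region is assigned to *ERBB3* or to another gene. The input DNA list had 0 peaks in the whole window, and the nearest of its 12 peaks on chromosome 12 was 17.9 Mb away.

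**Figure D1:**
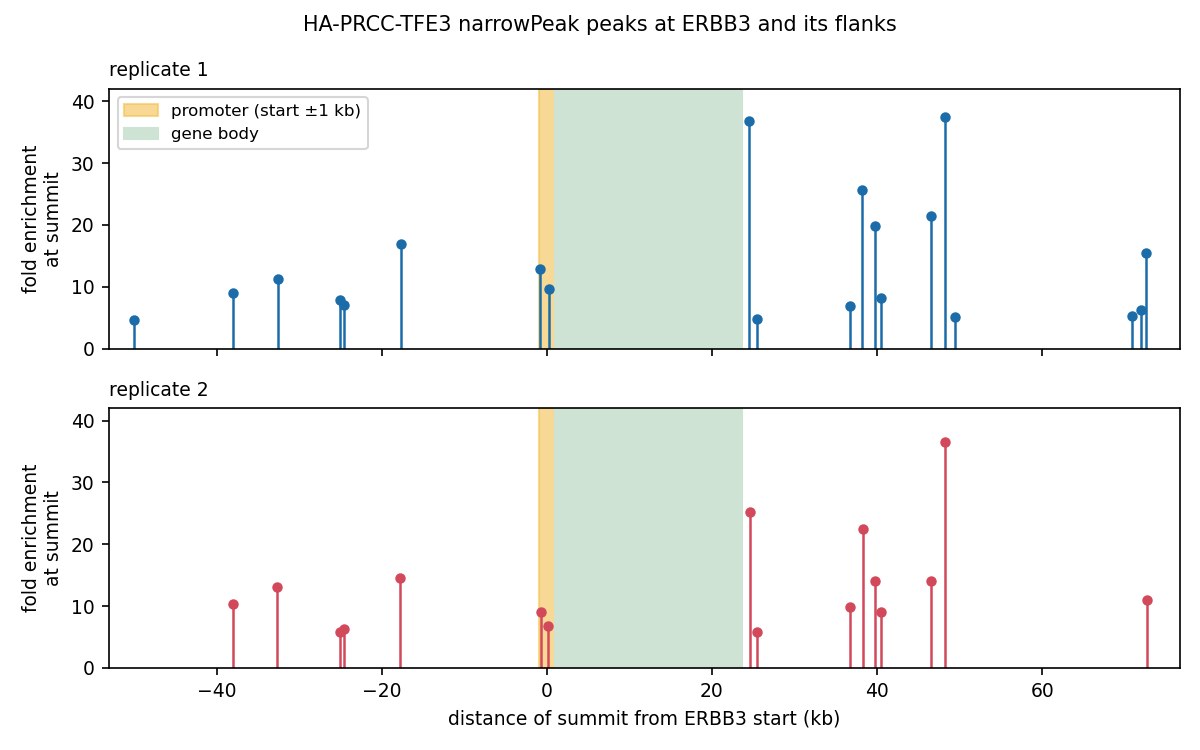
Fold enrichment of each narrowPeak peak (vertical axis) against the distance of its summit from the *ERBB3* start in kb (horizontal axis), for replicate 1 above and replicate 2 below. Each replicate has 2 peaks in the promoter (yellow), none in the gene body (green), and its highest peaks in the downstream flank, at 37.4 in replicate 1 and 36.6 in replicate 2.

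Counted by zone, replicate 1 had 6 narrowPeak peaks in the upstream flank, 2 in the promoter, 0 in the gene body and 12 in the downstream flank. Replicate 2 had 5, 2, 0 and 9 in the same order. Of the 20 regions, 16 (80%) had a peak of both replicates, namely 5 of 6 upstream, 2 of 2 at the promoter and 9 of 12 downstream. Over all regions of the genome this share was 59.8%. The other 4 regions had a peak in replicate 1 alone, with fold enrichments from 4.70 to 6.22, and 15 of the 16 regions found in both replicates had higher replicate 1 values than these. Thus all 16 replicate 2 peaks of the window were found in replicate 1, compared with 88.5% of replicate 2 peaks in the genome, and 16 of 20 replicate 1 peaks were found in replicate 2, compared with 65.3%. Replicate 2 had fewer tags, so a peak missing from its list cannot be taken as absent.

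The first promoter region lay upstream of the start (chr12:56472708-56473370). Its summit was at -769 bp from the start in replicate 1 and at -735 bp in replicate 2, 34 bp apart. Fold enrichment was 12.8 in replicate 1, with a −log10 q value of 22.7, and 8.98 in replicate 2, with a −log10 q value of 11.95. The peaks were 663 bp and 558 bp wide, compared with median widths of 280 bp and 284 bp in the whole lists, and were wider than or as wide as 94.7% and 91.5% of all peaks. This upstream region was therefore called with a strong q value in both libraries and was broad for a PRCC-TFE3 peak.

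The second promoter region lay just inside the gene (chr12:56473700-56474068) and is called the start-site region here. Its summit was at 255 bp past the start in replicate 1 and at 185 bp in replicate 2, 70 bp apart. Fold enrichment was 9.62 in replicate 1 (−log10 q of 16.0) and 6.82 in replicate 2 (−log10 q of 7.89). Its peaks were 337 bp and 282 bp wide. In both replicates the start-site region thus had the lower fold enrichment of the promoter pair.

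The 2 promoter regions were separated by 329 bp, and their summits by 1024 bp in replicate 1 and 920 bp in replicate 2. Of the gaps between neighbouring regions of the genome, 8.60% were this short or shorter, and the median gap was 7.51 kb. The gap on the upstream side, to the next region of the flank, was 16.6 kb, and 31.8% of genome gaps were as long or longer. On the downstream side the gap was 23.6 kb, and 24.1% were as long or longer. Both gaps thus exceeded the median, but gaps of such length were common. Gene models differ in where they put the *ERBB3* start: the gene used here is 23647 bp long, whereas the RefSeq gene of the later assembly is 249 bp shorter. If both end at the same base, the start of the shorter model lies within the start-site region, with summits at 6 bp in replicate 1 and -64 bp in replicate 2 from it. The number of promoter regions was 2 with either start.

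**Figure D2:**
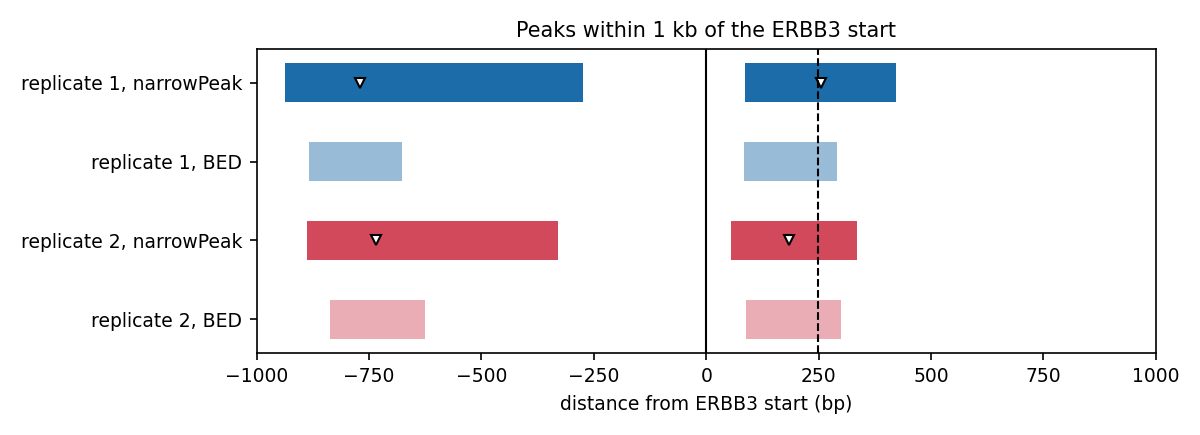
Extent of each narrowPeak (dark) and BED (light) peak of both replicates, as distance from the *ERBB3* start in bp. Triangles are narrowPeak summits, the solid line is the start and the dashed line a start 249 bp downstream. All 4 lists have a peak at both promoter regions, with replicate summits 34 bp and 70 bp apart.

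Next, the tags behind these peaks were compared between replicates and with input DNA. At the upstream promoter region, 22 tags were counted in replicate 1 and 12 in replicate 2. Scaled to 10000000 tags of the library, these were 17.98 (exact Poisson interval, 11.3 to 27.2) and 16.2 (8.36 to 28.3). At the start-site region the counts were 19 and 11, or 15.5 (9.35 to 24.2) and 14.8 (7.40 to 26.5) on the same scale. The replicates were close at both regions on this scale, although their fold enrichments were further apart.

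The promoter regions also could not be told apart from each other by tag count. The start-site region had 0.864 times the tags of the upstream region in replicate 1 (exact interval, 0.442 to 1.67) and 0.917 times in replicate 2 (0.366 to 2.27). These intervals include equal counts, and they also allow either region to be higher by more than 1.5 times. At counts of 11 to 22 tags, smaller differences between the promoter regions were not detectable.

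Few input DNA tags were recovered for the same peaks. At the upstream promoter region, 1 input tag was recovered for the replicate 1 peak and 2 for the replicate 2 peak. After scaling by library totals, ChIP tags exceeded input tags 39.0-fold in replicate 1 (exact conditional interval, 6.31 to 1610) and 17.5-fold in replicate 2 (3.91 to 161). At the start-site region there were 2 input tags for each peak, and the ratios were 16.8 (4.06 to 149) and 16.1 (3.51 to 149). With both promoter regions summed, 41 ChIP tags stood against 3 input tags in replicate 1, a ratio of 24.2 (7.73 to 122), and 23 against 4 in replicate 2, a ratio of 16.8 (5.75 to 66.9). All lower bounds lay above 1. The width over which input tags were counted is not stated, so the ratios here and below assume the width of the ChIP peak. These ratios are descriptions without a test, because the peaks had been called for excess over background, and the same input library stands behind both replicates. Against the local background, as the authors' list gives it, the fold was 11.4 and 10.45 at the upstream region and 9.72 and 9.40 at the start-site region. By this local fold the upstream promoter region ranked 5 of the 11 matched regions of the window in replicate 1 and 6 in replicate 2, and the start-site region ranked 8 in both. The upstream promoter region was thus in the middle of the window by this measure, above the downstream regions at chr12:56513205-56513527 (8.74 and 6.98), chr12:56519907-56520287 (8.88 and 6.51) and chr12:56545873-56546463 (10.95 and 8.39). By tag count and by fold enrichment at the summit the order was the reverse. Those downstream regions had 36 and 21, 40 and 21, and 30 and 16 tags, against 22 and 12 at the upstream promoter region. Most intervals of these tag ratios included equal counts, and why the measures differed was not tested.

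Differences between the replicates were then tested at every BED peak matched between them. An exact two-sided binomial test compared the replicate 2 share of the tags of a peak with its share over all matched peaks, 39.8%, with Benjamini-Hochberg adjustment over all 55655 matched peaks. The window held 11 matched peaks, with 417 replicate 1 tags and 269 replicate 2 tags in total. The replicate 2 share of these tags was 39.2% (Wilson interval, 35.6% to 42.9%). At the upstream promoter region the share was 35.3% (21.5% to 52.1%; exact binomial p = 0.727, adjusted p = 1), and at the start-site region it was 36.7% (21.9% to 54.5%; exact binomial p = 0.853, adjusted p = 1). The test covers only BED peaks that were listed in both replicates and overlapped, so peaks listed in 1 replicate alone, which could differ most, did not enter it. None of the 11 matched peaks of the window was called different between the libraries by this test. At an unadjusted p under 0.05 the number was 0 as well, and the lowest unadjusted exact binomial p was 0.388. In the genome, 0% of matched peaks passed the adjusted threshold and 2.20% had an unadjusted p under 0.05. The test compares 2 libraries of the same group, and a p above the threshold does not show that they bound equally. With 55655 peaks in the adjustment, the promoter peaks could hardly be called at their counts of 11 to 22 tags. Their adjusted p values therefore cannot speak for agreement between the libraries.

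**Figure D3:**
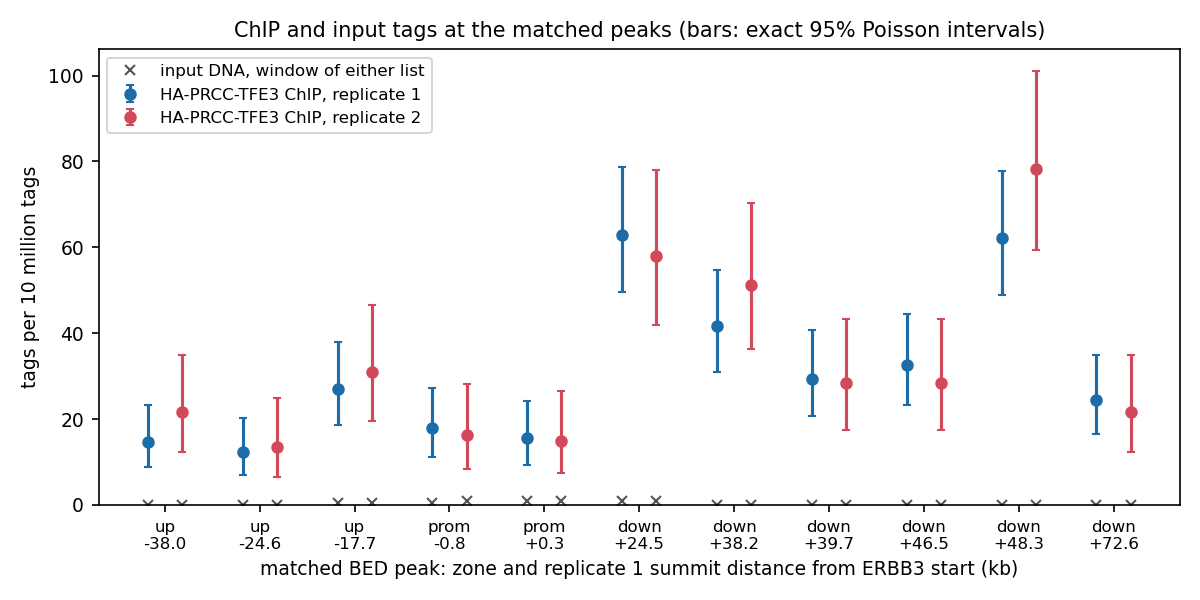
Tags per 10000000 library tags (vertical axis) at the 11 BED peaks matched between replicates, ordered along the chromosome and labelled with their zone and the distance of the replicate 1 summit from the *ERBB3* start in kb. Points are the ChIP replicates with exact 95% Poisson intervals, and crosses are input tags recovered for the same peaks. The promoter peaks lie between 14.8 and 17.98, and the peaks at 24.5 kb and 48.3 kb lie between 58.0 and 78.2.

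The promoter regions were set against the rest of the window. By tag count they ranked 8 and 9 of the 11 matched regions in replicate 1, and 9 and 10 in replicate 2. Together they held 9.05% of the tags in the BED peaks of the window in replicate 1 and 7.06% in replicate 2. The downstream flank held 71.1% and 71.8%, and the upstream flank 19.9% and 21.2%. The promoter makes up 1.62% of the window, and each flank about 40% of it (39.6% upstream and 40.4% downstream). Per kb of zone, the promoter had 20.5 listed tags in replicate 1 and 11.5 in replicate 2, the downstream flank 6.44 and 4.68, and the upstream flank 1.84 and 1.41. The promoter thus held a small share of the listed tags of the window but the highest average per kb of zone in both replicates. These averages cover unlike lengths, 2001 bp for the promoter and 49000 bp and 50000 bp for the flanks. They do not show that tags were densest at the promoter. Each of the 2 strongest downstream regions alone had more tags than the promoter regions summed (41 and 23) in both replicates.

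The 2 regions with the most tags were both downstream. One began 377 bp past the annotated gene end (chr12:56497668-56498500), with 77 tags in replicate 1 and 43 in replicate 2, and fold enrichments of 36.8 and 25.3. It had 3.50 times the tags of the upstream promoter region in replicate 1 (exact interval, 2.16 to 5.91) and 3.58 times in replicate 2 (1.86 to 7.46). The other lay at about 48.3 kb from the start (chr12:56521532-56522155), with 76 and 58 tags and fold enrichments of 37.4 and 36.6. Against the upstream promoter region its ratios were 3.45 (2.13 to 5.83) and 4.83 (2.57 to 9.89). The next protein-coding genes downstream of *ERBB3* in RefSeq are, in order, *PA2G4*, *RPL41*, *ZC3H10* and *ESYT1*, which encode an ErbB3-binding protein, a ribosomal protein, a zinc finger protein and a synaptotagmin-like protein. Where these genes start in hg19 was not analysed here, so the downstream regions are given by position only.

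At the region past the gene end, 2 input tags were recovered for each peak. ChIP tags exceeded input tags 68.3-fold in replicate 1 (18.3 to 574) and 62.9-fold in replicate 2 (16.4 to 536). At the region at 48.3 kb there were 0 input tags for either peak. Set against the 3 counts per library that a count of 0 allows, ChIP tags were at least 44.9-fold higher than input in replicate 1 and at least 56.5-fold higher in replicate 2.

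The third of the stronger downstream regions (chr12:56511604-56512435) had 51 and 38 tags and fold enrichments of 25.7 and 22.4. Its tags were 2.32 times those of the upstream promoter region in replicate 1 (1.38 to 4.01) and 3.17 times in replicate 2 (1.62 to 6.66). Of the 9 matched regions outside the promoter, these 3 had more tags than the upstream promoter region by an interval above 1 in both replicates. The same 3 did so against the start-site region. One further region did so in replicate 1 only for the upstream promoter region, and 2 did so in 1 replicate for the start-site region. The remaining regions had intervals that included equal counts, and 0 of the 9 lay below either promoter region by its interval.

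The other downstream regions found in both replicates ranged widely. The region chr12:56519907-56520287 had fold enrichments of 21.4 and 14.1, with 40 and 21 tags, and chr12:56513205-56513527 had 19.8 and 14.1, with 36 and 21 tags. In replicate 1 these were at or above 94.5% and 92.9% of all peaks, and both exceeded every upstream flank region there. In replicate 2 both were at or above 85.4% of all peaks. There they lay below the highest upstream flank region, which had a fold enrichment of 14.6. The region chr12:56545873-56546463 had fold enrichments of 15.5 and 10.9, with 30 and 16 tags. Lower values were found at chr12:56513992-56514235 (8.25 and 9.09), at chr12:56509986-56510581 (6.84 and 9.89) and at chr12:56498934-56499214 (4.81 and 5.78).

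The 5 upstream flank regions found in both replicates had fold enrichments from 7.001 to 16.9 in replicate 1 and from 5.77 to 14.6 in replicate 2. The highest of them in both replicates lay 17.7 kb before the start (chr12:56455636-56456118), with 33 and 23 tags. The regions chr12:56440617-56441214 (11.3 and 13.01) and chr12:56435296-56435766 (8.98 and 10.3) followed. The neighbouring regions chr12:56448533-56448807 and chr12:56448884-56449240 had the lowest fold enrichments, 7.93 and 7.001 in replicate 1 and 5.77 and 6.32 in replicate 2. The 4 regions listed in replicate 1 alone were chr12:56423565-56423757, at the outer edge of the upstream flank, and chr12:56523011-56523311, chr12:56544441-56544621 and chr12:56545532-56545741 in the downstream flank. The nearest listed genes upstream of *ERBB3* in RefSeq order are *RPS26*, which encodes a ribosomal protein, and *IKZF4*, which encodes a zinc finger transcription factor of the Ikaros family. Across the 16 regions found in both replicates, the summits of the replicates lay 2 to 87 bp apart, with a median of 33.5 bp.

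The narrowPeak and BED lists were not identical in the window. Of the narrowPeak peaks, 13 of 20 in replicate 1 and 14 of 16 in replicate 2 also had a BED peak, and both promoter regions did in each replicate. In the region chr12:56440617-56441214 both replicates had a BED peak, with 24 and 20 tags, but the 2 windows did not overlap and could not be matched. The regions that start at chr12:56509986 and chr12:56513992 had a BED peak in replicate 2 alone, with 22 and 15 tags, and the region chr12:56545532-56545741 had one in replicate 1 alone, with 12 tags.

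Fold enrichments of the 16 regions found in both replicates had a Spearman's rho of 0.887 between the replicates, and for tag counts at the 11 matched peaks rho was 0.922. Both are descriptions over neighbouring regions that share the same libraries and the same input. By fold enrichment at the summit, the upstream promoter region ranked 8 of these 16 regions in replicate 1 and 12 in replicate 2, and the start-site region ranked 10 and 13. The median fold enrichment of the 16 regions was 12.04 in replicate 1 and 10.6 in replicate 2, so the upstream promoter region lay just above the median in replicate 1 and below it in replicate 2. The place of the upstream promoter region in the window thus depended on the measure. It was in the middle by local fold in both replicates and by fold at the summit in replicate 1, but at the lower end by tag count. The start-site region lay below the middle by each of these measures.

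Finally, the locus was placed among all peaks of the genome. The upstream promoter peak was at or above 79.3% of all replicate 1 peaks and 64.2% of all replicate 2 peaks in fold enrichment. The start-site peak was at or above 64.7% and 43.8%. By tag count, the corresponding values were 66.2% and 46.4% for the upstream region and 57.6% and 40.04% for the start-site region, with medians over all BED peaks of 17 tags in replicate 1 and 13 in replicate 2. The promoter peaks were thus of middling strength in these lists. In contrast, the region past the gene end was at or above 99.8% of peaks in replicate 1 and 98.03% in replicate 2 in fold enrichment, and the region at 48.3 kb was at or above 99.8% in both.

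**Figure D4:**
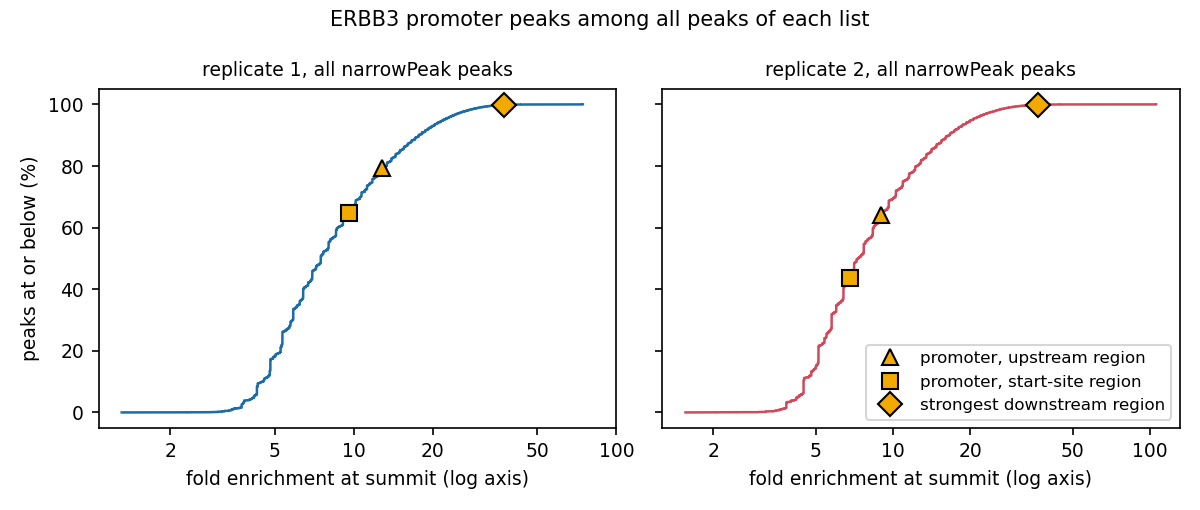
Share of all narrowPeak peaks at or below a given fold enrichment (vertical axis, in %) against fold enrichment at the summit (horizontal axis, logarithmic), for each replicate. The promoter regions (triangle and square) lie on the rising part of the curve, between 43.8% and 79.3%, whereas the strongest downstream region (diamond) lies at 99.8% in both replicates.

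To give the number of regions a background, chromosomes 1 to 22 and X were divided into adjoining tiles of the length of the window, 123647 bp. The *ERBB3* window held 16 regions found in both replicates. Tiles held a median of 1, and 1.18% of the 24536 tiles held at least 16. For the promoter, 5.04% of all tiles of the same length (2001 bp) held at least 1 such region, and 0.528% held 2 or more, as the *ERBB3* promoter did. Other promoters were not analysed here, and these tiles include intergenic and unmappable sequence, so the shares say how rare such a window is in the genome and not how rare it is among promoters.

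**Figure D5:**
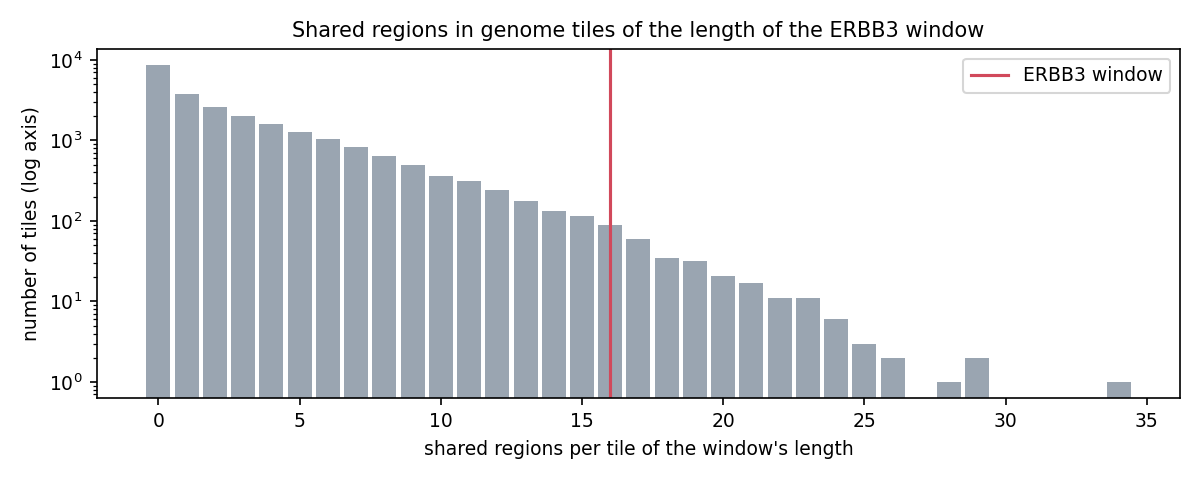
Number of genome tiles of 123647 bp (vertical axis, logarithmic) that hold a given number of regions found in both replicates (horizontal axis). The red line marks the *ERBB3* window, with 16 regions, a number that 1.18% of tiles reach.

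The absence of listed peaks in the gene body was set against the same kind of background. Of 134013 tiles of the length of the gene body (22646 bp), 58.8% held no region of either replicate. The stretch without a region, from the start-site region to the region past the gene end, was 23.6 kb long, and 24.1% of gaps between neighbouring regions of the genome were as long or longer. A stretch of this length without a listed region was therefore common in the genome. Other gene bodies were not analysed here, and these tiles include intergenic and unmappable sequence. The lists hold only peaks above the callers' limits, so weaker binding in the gene body was not detectable here. Over the whole lists the lowest fold enrichment was 1.31 in replicate 1 and 1.56 in replicate 2, and the lowest tag count 7 and 6. In the window the lowest listed fold enrichment was 4.70 in replicate 1 and 5.77 in replicate 2. The lowest values of the whole lists therefore need not be the limit that held in the gene body.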

How the data were processed

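HA-PRCC-TFE3 ChIP-seq was available as peak lists for 2 ChIP replicates and input DNA. The methods name MACS, run in Strand NGS on each sample; the submitters' processing notes give hg19, and a peak on chromosome M ended at 16571. The aligner and duplicate handling are not given in the sources used here. The deposited narrowPeak lists hold a fold enrichment ratio, −log10 p and −log10 q values, a score and the summit. The deposited BED lists, laid out as by HOMER with displaced header names, were read by position. They hold a score, the count of tags, a signal per 10000000 tags, a scaled input signal, fold ratios and p-values set by the authors. Whether their starts count from 0 or 1 is not stated, so they may be off by 1 bp, and the width over which input tags were counted is not stated either.

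Library totals were taken as summed tag counts over summed signal. Tags of input DNA were recovered for each ChIP peak from tags over fold, which fell within 0.05 of whole multiples of 1 input tag (with a tolerance widened in proportion above 10 tags, and a constant of 0.5 for 0 tags) in 100% of peaks of either list. Zones were set by any overlap, with the promoter first. Regions were merged at 1 bp of overlap, and BED peaks were matched to the nearest overlapping centre. Python 3.11.15 with SciPy 1.17.1 was used. The binomial test was run on simulated tags with known changes, but its power is not given here. The rule for naming took every region that overlapped the window, with values for each one found in both replicates and ranges for the others. The window and the comparisons were chosen with earlier results of these data known. Alternatives covered zone widths, lists, thresholds, overlap, scaling and left-out replicates. The study describes the ChIP libraries as biological replicates.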

Additional observations from a re-analysis of the deposited data

How the results depend on the processing

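Of 72 alternative values, 59 stayed within their limits and 13 moved. The limits were a factor of 1.5 for counts, 1 SD between replicates for ratios and percentiles, and the Wilson interval for shares of tiles. Alternatives with another gene start, or with a replicate left out of the percentiles or tiles, were chosen after seeing the data. Some of the 59 could not have moved, so their number overstates how far the results held. A percentile with 1 replicate left out always lies within 1 SD of the average of 2. The ratio with 1 replicate left out is nearly as bound, and flank widths cannot change promoter or gene body counts. The promoter had 2 regions found in both replicates and the gene body 0 under every alternative run on both replicates that could change these counts. These included a promoter of ±500 bp or ±2 kb, q below 1e-05 and the BED lists. The list of either replicate alone also had 2 promoter peaks and 0 in the gene body. The upstream flank went from 5 such regions to 3 with flanks of 25 kb and to 9 with flanks of 100 kb, and the downstream flank from 9 to 16 with flanks of 100 kb, by construction. With the BED lists the upstream flank had 3, since 1 region had no BED peak and the windows of another did not overlap. The downstream flank also fell with the BED lists, from 9 to 6, which is at the limit of 1.5 and was counted as unmoved. The share of window-length tiles with at least as many regions went from 1.18% to 1.82% among tiles with at least 1 region and to 2.23% with the BED lists. It ranged from 1.98% to 2.20% with 1 replicate left out, the higher value without replicate 1. For promoter-length tiles, 0.528% became 10.5% among tiles with at least 1 region, 0.628% on chromosome 12 and 0.230% with the BED lists, and ranged from 0.701% without replicate 1 to 1.02% without replicate 2. The combined ratio of ChIP to input tags at the promoter, 20.2, ranged from 16.8 to 24.2 over its alternatives. The percentile of the start-site region, 54.2 on average over replicates, fell to 42.6 among peaks with q below 1e-05 and 42.4 among peaks found in both replicates. No matched peak of the window was called different between the libraries under any expected share or matching rule run. The promoter peaks could hardly have been called at their tag counts. No paired analysis was possible because replicate numbers are given to ChIP samples alone. At 11 to 22 tags per promoter peak, counting error limits every ratio there.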
